A study of Mus musculus with 2 samples.

Results

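The subunits of the mitochondrial respiratory chain and of the ATP synthase were compared between FGF18-injected and PBS-injected mouse back skin. Genes were chosen by the name printed for their probes, not by any measured value. The names were those of the NADH dehydrogenase subunits (Nduf), the succinate dehydrogenase subunits (Sdh), the cytochrome bc1 subunits (Uqcr and Cyc1), the cytochrome c oxidase subunits 5 to 8 (Cox), the ATP synthase subunits (Atp5) and cytochrome c (Cycs). This took 79 of 27581 gene names on the array, covered by 111 probes of 1 spot each. Of these genes, 78 were measured on both arrays, by 107 probes well above background; Cox8c was not well above background on either array. Another 3 probes of measured genes (Ndufs1, Ndufs4 and Sdhc) were also not well above background on either array and were left out. Ndufa12l and Atp5s carry matching names, but their current RefSeq symbols are Ndufaf2, an assembly factor, and Dmac2l; both are counted as members and set apart from the complexes. Ndufa4 was kept with complex I by its name, although its protein is now assigned to complex IV.

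The series asked which transcripts respond when FGF18, a secreted fibroblast growth factor, is delivered to skin in anagen, when hair follicles grow. Male C3H/HeN mice aged 61 days had been depilated 5 days earlier and received 1 µg of FGF18, or PBS in its place, under the back skin on day 4 of the induced anagen. Full-thickness skin was taken 24 h later. The extraction protocol names 3 mice, which may be per group or in all, and each group's poly(A) RNA was pooled for 1 single-colour Agilent array. The PBS sample is called telogen in its title but anagen in its other entries.

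The respiratory chain passes electrons from NADH and succinate to oxygen and pumps protons across the inner mitochondrial membrane, and the ATP synthase uses the proton gradient to make ATP. Complexes I and II feed ubiquinone, complex III passes the electrons to cytochrome c, and complex IV reduces oxygen. Most subunits are encoded in the nucleus and a few in the mitochondrial genome. Several subunits of complex IV have a heart and skeletal muscle isoform beside a broadly expressed one. Full-thickness mouse back skin contains a sheet of skeletal muscle, the panniculus carnosus, and a layer of fat below the dermis.

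On both arrays, 61.5% (PBS) to 62.4% (FGF18) of 43379 probe spots were well above background and the arrays shared 1 slide and 1 scan. With 1 array per group the difference has no replicate check and no test was made, so precision is limited by how few arrays there are. Spots of 1 probe printed 8 or more times gave only the error between spots of the same arrays. The median SD of the log2 ratio between such spots was 0.025 for 34 probes with signals over 5000. It was 0.036 for 79 probes with signals of 500 to 5000 and 0.10 for 64 probes under 500, among which it reached 0.44. The scanner's own error estimates for the member probes, bright or dim, were larger than these median SDs. They gave a standard error of the log2 ratio of 0.20 for the Cyc1 probe and 0.28 for a dim Uqcrq probe. Many differences between members below are smaller than these. All ratios below are log2 of FGF18 over PBS after each array was scaled to its 75th percentile, and signals are processed intensities before scaling. For a gene with several probes, the signal is the geometric mean of the probes. The median ratio of all 16610 measured genes was -0.076, so ratios are read against that value rather than against 0. Median scaling moved the median of all genes by 0.10 and leaving out the scaling moved it by 0.19, and such a constant moves every gene alike.

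The members lay close to the rest of the transcriptome and were more tightly grouped than it. Their median log2 ratio was -0.063, against -0.076 for all genes, and 44 of the 78 lay above the median of all genes. The SD over members was 0.17, against 0.40 over all genes, many of which were dimmer. None was 2-fold higher or lower, where 1.53% of all genes were 2-fold higher and 0.999% 2-fold lower. Only Cyc1 was at least 1.5-fold higher (3.77% of all genes) and none was at least 1.5-fold lower (4.91% of all genes). With median scaling or no scaling, 2 members passed 1.5-fold. Past a log2 ratio of 0.32 in size, 4 members were higher (5.13%, against 8.80% of all genes) and 2 lower (2.56%, against 15.8% of all genes). Cyc1, Atp5b and Atp5a1 were among the 4, and the 2 were Cox8a and Ndufa3. The members were also bright: the median signal of the members was 15750 with FGF18 and 14250 with PBS, against 618 and 558 for all measured genes.

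**Figure D1:**
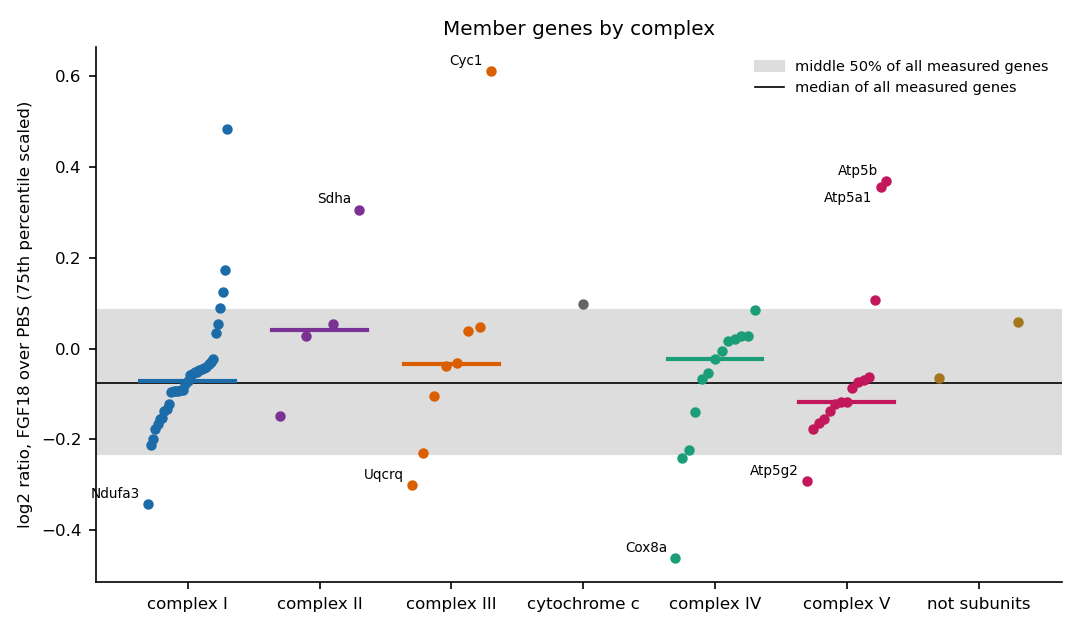
The log2 ratio of FGF18 over PBS is plotted for each of the 78 measured member genes (points) by complex, with a bar at the median of each group of more than 2 genes, a line at the median of all 16610 measured genes and a band over their middle 50%. Most points lie inside the band, and Cyc1 at 0.61 stands highest while Cox8a at -0.46 stands lowest.

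**Figure D2:**
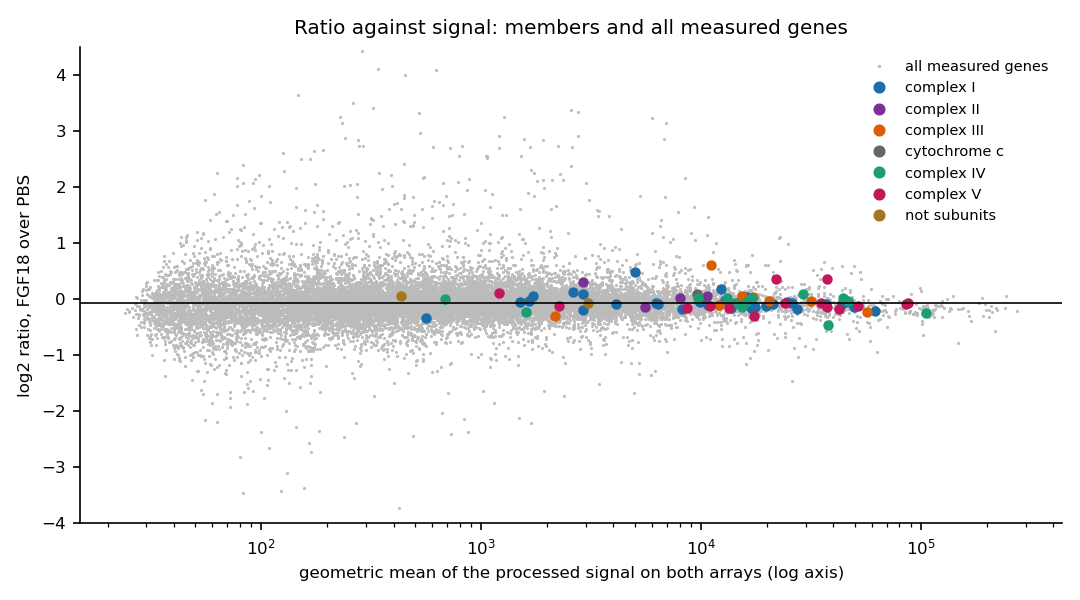
The log2 ratio of FGF18 over PBS is plotted against the geometric mean signal of both arrays (log axis) for all 16610 measured genes (grey) and for the members (coloured by complex), with a line at the median of all measured genes. The members sit in the bright part of the plot and near the line, with no member past a log2 ratio of 1 or -1.

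Promoters are shown for Atp5b and Sdha, members with high ratios by all of their probes, and for the muscle isoform Cox8b beside its partner Cox8a, the member with the lowest ratio. The windows run from 250 bases before to 50 after the annotated start and come from RefSeq, build GRCm38.p6. Capitals mark exact matches, on either strand, to 4 short motifs: the NRF1 element (GCGCA and GCGC with 1 base of any kind between them), the ETS core CCGGAA, the CCAAT box and the E-box CAGCTG. No 2 matches overlapped in these windows.
Atp5b, chr10:128083057-128083356, plus strand: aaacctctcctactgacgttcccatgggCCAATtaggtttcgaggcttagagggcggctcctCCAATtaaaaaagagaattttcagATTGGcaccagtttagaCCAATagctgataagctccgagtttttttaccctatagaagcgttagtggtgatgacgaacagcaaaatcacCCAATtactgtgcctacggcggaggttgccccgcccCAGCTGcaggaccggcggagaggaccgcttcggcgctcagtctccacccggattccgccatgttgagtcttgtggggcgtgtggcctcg
Sdha, chr13:74350191-74350490, minus strand: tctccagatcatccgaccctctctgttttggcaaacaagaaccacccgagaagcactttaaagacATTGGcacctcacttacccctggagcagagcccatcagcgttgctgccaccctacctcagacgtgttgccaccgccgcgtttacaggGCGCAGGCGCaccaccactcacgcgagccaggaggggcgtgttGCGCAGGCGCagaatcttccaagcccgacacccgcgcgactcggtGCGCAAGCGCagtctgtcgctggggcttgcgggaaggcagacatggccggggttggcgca
Cox8b, chr7:140900397-140900696, minus strand: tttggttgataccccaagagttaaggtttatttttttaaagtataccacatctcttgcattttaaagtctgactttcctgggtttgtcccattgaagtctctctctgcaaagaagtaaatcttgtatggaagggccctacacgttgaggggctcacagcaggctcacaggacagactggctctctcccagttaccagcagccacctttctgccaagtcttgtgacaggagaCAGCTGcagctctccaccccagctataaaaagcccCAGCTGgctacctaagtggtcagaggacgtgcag
Cox8a, chr19:7217567-7217866, minus strand: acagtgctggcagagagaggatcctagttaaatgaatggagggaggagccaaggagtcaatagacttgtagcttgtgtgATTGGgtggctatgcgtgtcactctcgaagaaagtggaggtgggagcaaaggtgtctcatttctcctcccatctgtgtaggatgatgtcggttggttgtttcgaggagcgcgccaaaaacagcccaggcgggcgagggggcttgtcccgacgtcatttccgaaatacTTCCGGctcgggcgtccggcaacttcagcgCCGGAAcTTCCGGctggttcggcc
The Sdha window held 3 NRF1 elements and 1 CCAAT box. The Atp5b window held 5 CCAAT boxes and 1 E-box. The Cox8a window held 3 ETS cores and 1 CCAAT box, and the Cox8b window held 2 E-boxes alone, so the isoforms of subunit 8 shared none of the 4 motifs. Among 66 member genes matched to the table by symbol, 17 (25.8%) held the NRF1 element, against 4.60% of its 32851 promoters. The ETS core was held by 24 of the 66 (36.4%) against 14.9% of promoters, the CCAAT box by 29 (43.9%) against 37.4%, and the E-box by 6 (9.09%) against 16.3%. The table holds promoters of noncoding genes too, and a member with several entries was counted if any of them matched. A match is a run of letters and no evidence of binding.

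Complex I oxidises NADH, and its 35 measured members centred on the transcriptome, with a median log2 ratio of -0.072 and 18 genes above the median of all genes. Ndufs3, a catalytic core subunit, had a signal of 14000 with FGF18 and 10900 with PBS, a log2 ratio of 0.17 (1.13-fold). Ndufb5, an accessory subunit of the membrane arm, was at 2930 and 2360 (0.13). Both were among the highest ratios of the complex, and each rested on 1 probe.

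Other core subunits of complex I were near the median of all genes. Ndufv1, which carries the flavin that accepts electrons from NADH, had signals of 25800 and 23500 (log2 ratio -0.052). Its neighbour Ndufv2 was at -0.094. The iron-sulfur subunits Ndufs1, Ndufs7 and Ndufs8 were at -0.057, -0.092 and 0.055. The 7 core subunits had a median of -0.052 and the 28 accessory members one of -0.085. The accessory Ndufb5 and Ndufa10 (3210 and 2650, ratio 0.090) lay above 5 of the 7 core subunits.

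The lowest ratios of complex I belonged to accessory subunits. Ndufa3 was at -0.34 (1.27-fold lower) as the mean of a bright probe, with signals of 4250 and 4570, and a dim one, with 66.0 and 76.2. Both probes were on the same side, at -0.29 and -0.39. Ndufa13, also studied as the cell death regulator GRIM-19, had signals of 61200 and 62300 (log2 ratio -0.21). The probes of Ndufb2 gave signals of 20100 and 20300, and of 415 and 418, and a ratio of -0.20. Ndufa4 itself had signals of 27100 and 24800 (log2 ratio -0.059). By name group, the medians were -0.072 for 13 Ndufa, -0.085 for 10 Ndufb, -0.091 for 2 Ndufc and -0.039 for 8 Ndufs genes.

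Complex II, the succinate dehydrogenase that also serves the tricarboxylic acid cycle, had a median log2 ratio of 0.041 over its 4 genes. Sdha, the flavoprotein that oxidises succinate, had signals of 3458 with FGF18 and 2457 with PBS, a log2 ratio of 0.31 (1.24-fold), with its 2 probes at 0.25 and 0.36. Sdhb, the iron-sulfur subunit, had signals of 8650 and 7450 (0.028). Of the membrane anchors, Sdhd was at 11600 and 9820 (0.053) and Sdhc at 5630 and 5480 (-0.15). Only Sdhc was below the median of all genes.

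Complex III had a median of -0.035 over 8 genes and held the member with the highest ratio. Cyc1, the haem-bearing cytochrome c1 that hands electrons to cytochrome c, had a signal of 14600 with FGF18 and 8400 with PBS, a log2 ratio of 0.61 (1.53-fold) by 1 probe. It stood above 96.5% of all measured genes. Uqcrfs1, the Rieske iron-sulfur protein and the other nuclear-encoded catalytic subunit, had signals of 16600 and 14100 (0.048).

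The remaining subunits of complex III lay lower. The core proteins Uqcrc1 and Uqcrc2 had signals of 18570 and 15879 (log2 ratio 0.039) and of 21600 and 19400 (-0.032). Uqcr, now Uqcr11, was at 33500 and 30200 (-0.037) and Uqcrb at 12500 and 11800 (-0.10). Uqcrh, the hinge protein, had signals of 55954 and 57641 (-0.23) with its probes at -0.32 and -0.14. Uqcrq was at -0.30 as a mean of a bright probe (64400 and 60500, ratio -0.097) and a dim one (67.6 and 84.3, ratio -0.51), which thus disagreed. By these means Uqcrh and Uqcrq had the lowest ratios of the complex, but the bright probe of Uqcrq alone lay above Uqcrb.

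Cytochrome c, the mobile carrier between complexes III and IV, was measured by 3 probes of Cycs. Their signals were 28400 and 22800, 8220 and 6860, and 5050 and 4170 on the FGF18 and PBS arrays. All 3 probes lay on the same side, between 0.074 and 0.13, with a mean log2 ratio of 0.098.

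Complex IV reduces oxygen to water, and its 13 measured members of the Cox names had a median log2 ratio of -0.023, with 9 above the median of all genes. The highest were Cox5b, with signals of 32100 and 26600 (log2 ratio 0.084), Cox5a, with 47600 and 41000 (0.028), and Cox7c, with 10500 and 9050 (0.027). All of these encode broadly expressed structural subunits. The lowest was Cox8a, at 34400 with FGF18 and 41600 with PBS, a log2 ratio of -0.46 (1.38-fold lower) by 1 probe. Cox6a1 was at 104000 and 108000 (-0.24) and Cox6b1 at 1580 and 1620 (-0.22). These 3 were the members of the complex whose signal was lower on the FGF18 array before any scaling.

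At the main setting, the muscle isoforms of complex IV lay nearer to the median of all genes than their partners in 2 of 3 pairs. Cox6a2, the heart and muscle form of subunit 6a, had signals of 18300 and 15900 (log2 ratio 0.016), against -0.24 for Cox6a1. Cox8b, the heart and muscle form of subunit 8 that is also known in brown fat, had signals of 14100 and 12200 (0.022), against -0.46 for Cox8a. Cox7a1, the heart and muscle form of subunit 7a, had signals of 15600 and 15100 (-0.14), against -0.053 for the 2 agreeing probes of Cox7a2 (16715 and 15232). The ratio of the muscle form minus that of its partner was therefore 0.26 for subunit 6a, 0.48 for subunit 8 and -0.087 for subunit 7a. At the main setting the first 2 differences came mainly from the lower ratio of the partner. For subunit 6a this depended on the processing. With quantile normalization, Cox6a2 was at 0.11 and Cox6a1 at -0.067 relative to all genes, so Cox6a2 lay farther from their median. The subunit 6b forms were at -0.0042 for Cox6b2, known from testis (signals 731 and 644), and at -0.22 for Cox6b1. Signals of different probes were not set against each other.

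Genes of skeletal muscle were measured beside these isoforms. All 21 listed skeletal muscle markers were measured, with a median log2 ratio of 0.18 and 16 above the median of all genes. Actn3, of the Z disc of fast fibres, was highest at 0.84 (signals 16200 and 7950), and Myh1, a fast myosin heavy chain, lowest at -0.21. The summed signal of the list before scaling was 1078322 with FGF18 and 933456 with PBS. The whole FGF18 array was brighter too, with a 75th percentile of 1020 against 896, so unscaled sums alone show no difference in muscle. In the slow fibre list, 8 of 9 genes were measured, with a median of 0.14; Myl2 was not well above background on either array. Casq2, a calcium store protein of the heart and of slow fibres, was at 0.85 and Tnnc1, the slow troponin C, at -1.51, at dim signals of 54.7 and 137. Fat genes were present too: the 11 general adipocyte markers had a median of 0.15. Ucp1 and Prdm16 of the brown fat list were not well above background on either array. The other 5 brown fat markers were well above background on both arrays, with FGF18 signals from 221 for Ppara to 29800 for Cidea. Their ratios ran from -0.39 for Ppara to 0.12 for Elovl3. The summed signal of the adipocyte markers, also before scaling, was 209038 with FGF18 and 182960 with PBS. Within that list, Retn was highest (0.35) and Cfd lowest (-0.13). The smooth muscle list had a median of 0.083 over 6 genes, from Tagln at -0.43 to Des at 0.24. The fibroblast list had a median of -0.48 over 6 genes, from Col1a2 at -0.75 to Pdgfra at -0.19. Relative to all genes that median was -0.40, but it was -0.22 over probes with a signal over 100, -0.19 with the brightest probe of a gene and -0.074 with no filter on dim probes. The keratinocyte list had a median of -0.23 over 6 genes, from Dsp at -0.51 to Krt14 at 0.010, and the macrophage list one of -0.32 over 5 genes, from Mrc1 at -0.71 to Cd68 at 0.30. The part of these cell types in the members' ratios was not tested, and in whole skin fewer cells of a type and less RNA per cell cannot be told apart.

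**Figure D3:**
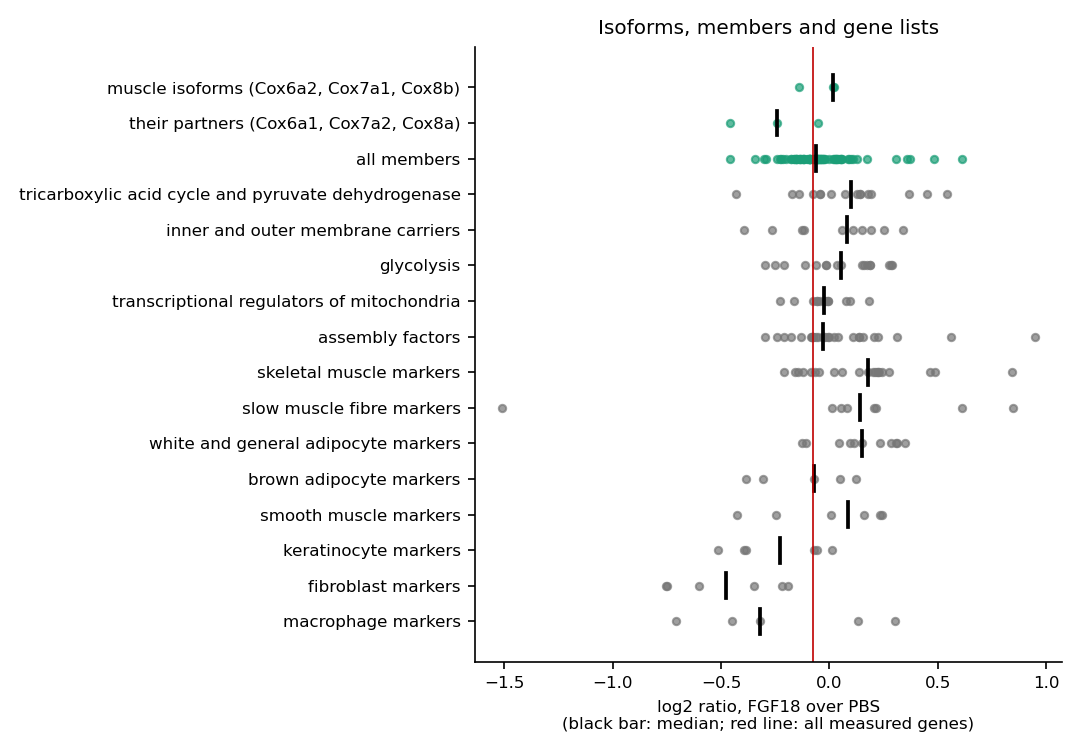
The log2 ratio of FGF18 over PBS is plotted for each measured gene (points) of the muscle isoforms, their partners, all members and the other gene lists, with a black bar at each median and a red line at the median of all measured genes. The muscle isoforms lie at 0.016, 0.022 and -0.14, below the skeletal muscle median of 0.18, and their partners reach down to -0.46.

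The ATP synthase, or complex V, had a median log2 ratio of -0.12 over 15 genes, of which 6 lay above the median of all genes. Relative to all genes this median was -0.041, but it was 0.022 with quantile normalization and 0.067 with no filter on dim probes, so its direction depended on the processing. Its catalytic subunits stood apart from the remaining ones. Atp5b, the beta subunit that carries the catalytic sites, was measured by 3 probes with signals of 122000 and 95700, 29400 and 18900, and 5340 and 3330, a mean log2 ratio of 0.37 (1.29-fold). The probes lay at 0.16, 0.45 and 0.49, all above the median of all genes. Atp5a1, the alpha subunit, had signals of 66800 and 43700 by one probe and 30800 and 22200 by the other, a mean log2 ratio of 0.36 (1.28-fold). Its probes lay at 0.43 and 0.29.

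The other subunits of the F1 head were not higher. Atp5c1, the gamma subunit of the rotating stalk, had signals of 91000 and 83800 (log2 ratio -0.068). Atp5d and Atp5e, the delta and epsilon subunits, were at -0.12 each. The 10 members of the membrane part and the stator had a median of -0.13, with 3 above the median of all genes. Atp5j2 was highest among them at 0.11, but its probes disagreed: the bright one (30800 and 27900) was at -0.044 and a dim one (57.5 and 42.2) at 0.26.

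The rotor ring of subunit c is encoded by 3 genes for the same mature protein. Atp5g1 had signals of 13600 and 13300 (log2 ratio -0.15), Atp5g3 had 88700 and 82800 (-0.088), and Atp5g2 had 16733 and 17991 (-0.29). The probes of Atp5g2 agreed, at -0.31 and -0.27, so it was the lowest member of complex V. Atp5j and Atp5k, of the stalk and the membrane part, were next lowest: Atp5j had signals of 42400 and 42100 (-0.18) and Atp5k had 8730 and 8590 (-0.16). Atp5s and Ndufa12l, which are not subunits, were at 0.059 and -0.064.

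**Figure D4:**
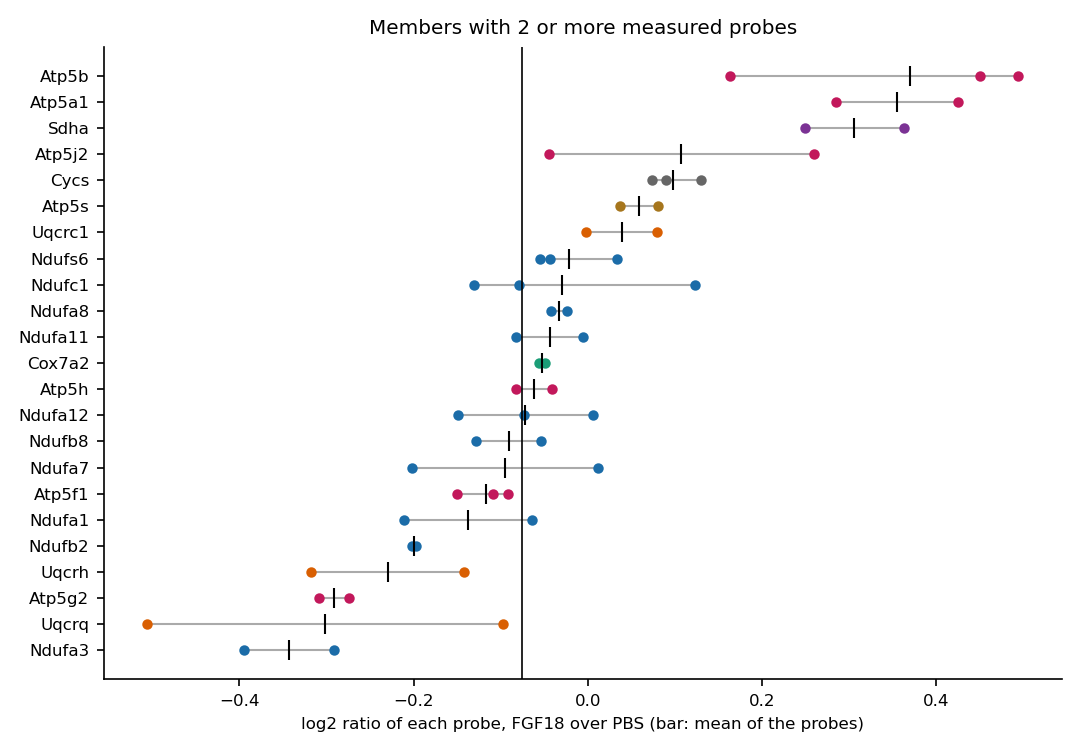
Each point is the log2 ratio of FGF18 over PBS of 1 probe for the 23 members with 2 or more measured probes, with a bar at the mean of the probes and a line at the median of all measured genes. All probes of Atp5b, Atp5a1 and Sdha lie right of the line, and the probes of Uqcrq and Atp5j2 lie far apart.

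Core and other subunits were also set side by side across complexes I, II, III and V. This grouping was made after the values were seen and is given as a description. Complex IV has no member in the core group, since its catalytic subunits are encoded in mitochondria, and all of complex II was counted as core, the membrane anchors included. The 15 catalytic core members, which were 7 of complex I, all 4 of complex II, Cyc1 and Uqcrfs1 of complex III, and Atp5a1 and Atp5b, had a median log2 ratio of 0.053, and 12 of them lay above the median of all genes. All 4 members with a log2 ratio over 0.32 were among these 15. The other 60 measured subunits had a median of -0.083, with 29 above the median of all genes. Relative to all genes, the median of the core subunits was 0.12 to 0.24 over all settings run and that of the others -0.023 to 0.096. No core subunit was lower than -0.15, the value of Sdhc. The range over core subunits, from -0.15 to 0.61, overlapped that of the others, from -0.46 to 0.13. Probes of 23 members could be checked against each other, and in 16 of these all probes lay on the same side of the median of all genes. The same share over all genes with several measured probes was not counted, so the 16 are given as a description only.

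**Figure D5:**
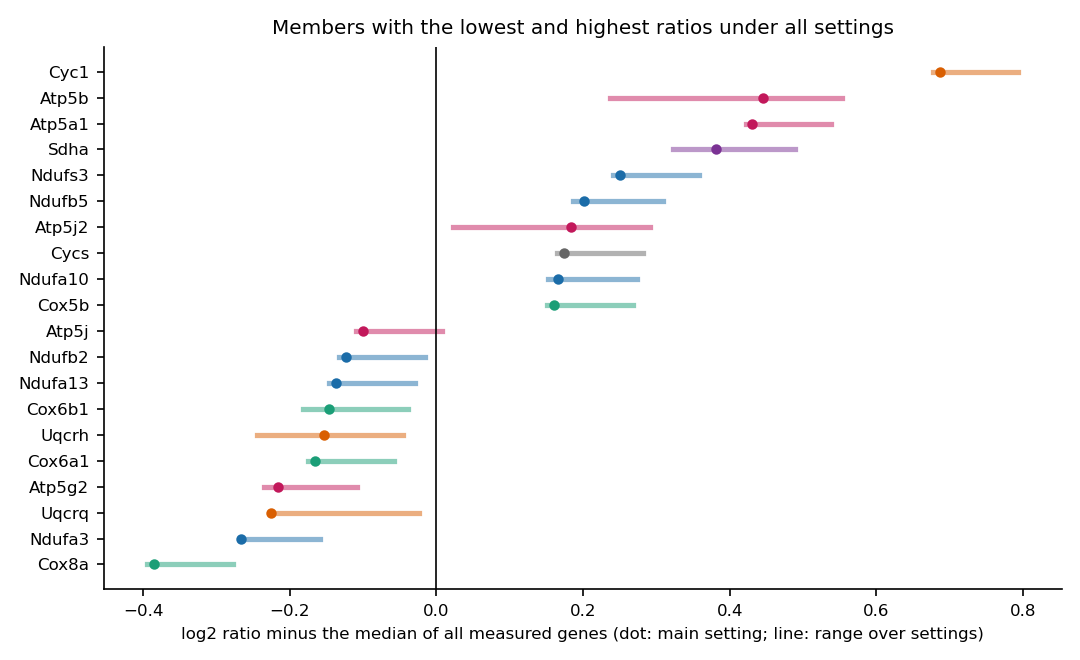
For members with the lowest and the highest ratios, the dot is the log2 ratio minus the median of all measured genes at the main setting and the line its range over the 11 alternative settings, coloured by complex. The lines of Cyc1, Atp5b, Atp5a1 and Sdha stay at or above 0.24, and that of Atp5j crosses 0.

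Subunits that the name rule did not take were looked up in a separate list, in which 6 of 10 genes were measured, with a median of -0.034. Cox4i1, the main form of complex IV subunit 4, had signals of 68900 and 62200 (log2 ratio -0.039), and Ndufab1, the acyl carrier protein of complex I, was at -0.029. Cox7a2l, a relative of subunit 7a that joins complexes III and IV, had signals of 8340 and 4940 (0.57), the highest of the list by 1 probe. Atpif1, the inhibitor of the ATP synthase, was at -0.28. Higd1a and Higd2a, which associate with complex IV, were at 0.062 and -0.21. Cox4i2 and the testis cytochrome c Cyct were not well above background on either array. Of the subunits encoded in mitochondria, probes named CYTB (60200 and 61900), COX2 (157000 and 153000) and ND4L (37400 and 37600) were at -0.23, -0.15 and -0.19. These 3 were picked after the listed names found no probe, and the description of the ND4L probe names subunit 4 instead.

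The wider mitochondrial pathway was measured through other lists. The 16 genes of the tricarboxylic acid cycle and pyruvate dehydrogenase had a median log2 ratio of 0.10, with 12 above the median of all genes and 0 past 1.5-fold. Pdhb, of the pyruvate dehydrogenase, was highest at 0.54, with 2 agreeing probes, and Dlst lowest at -0.43, with probes from -1.32 to 0.067. The 10 membrane carriers had a median of 0.083, in which Vdac1 was highest (0.34) and Ucp2 lowest (-0.39). The glycolysis list had a median of 0.052 over 17 genes, from Pgam1 at -0.30 to Gapdh at 0.29 by a dim probe (64.6 and 46.5). Assembly factors had a median of -0.032 over 29 genes, the member Ndufa12l (now Ndufaf2) included. Foxred1, an assembly factor of complex I, was highest at 0.95 (987 and 449, with both probes above the median of all genes). Ndufaf3 was lowest at -0.30. The 13 transcriptional regulators had a median of -0.027, with Nrf1 highest at 0.18, Esrra lowest at -0.23 and the coactivator Ppargc1a at -0.027.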

How the data were processed

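Each sample was 1 single-colour Agilent array. Per the file headers, spots were read with Feature Extraction 9.5.3.1 (protocol GE1-v5_95_Feb07, array design 014868), and the deposited intensity used here is the scanner's processed signal, already background-subtracted. The authors' deposited value table held the ratio of each signal to its array's median, as found by setting it against the scanner values; it has no log or gene centring, and its column medians were 1.00 and 0.999.

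Controls and spots flagged as outliers were dropped, log2 signals were scaled to each array's 75th percentile (1020 for FGF18 and 896 for PBS), spots of a probe were averaged, and probes of a gene were averaged as log2 ratios. A probe counted as measured if no less than a 0.5 share of its spots stood well above background on each array. With 1 array per group no test was possible, and genes past 1.5-fold, 2-fold or a log2 ratio of 0.32 were counted. Python 3.11.15, R 4.3.3 and limma 3.58.1 were used, and the code was tested on simulated data. Alternatives were other scalings, quantile and loess normalization, normexp correction, the value table, other filters and other ways to join probes.

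The members and lists were chosen with earlier results of these data known. Values are given in full for the 3 highest and 3 lowest members of complexes I, IV and V, all of complexes II and III and cytochrome c, the isoforms, and members past 1.5-fold, except 1 member whose values are not reported here. For each other list of nuclear genes the highest and lowest genes are named, and the muscle and brown fat lists, for which every gene was to be given, are summarised by their range. Current symbols of all 79 members came from RefSeq. Probe positions are not printed, since no build is named for them.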

Additional observations from a re-analysis of the deposited data

How the results depend on the processing

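Over the 11 alternatives, the medians of complex V (-0.051 to 0.067) and complex I (-0.011 to 0.11) and the value of Cox7a1 (-0.073 to 0.044) changed sign relative to all genes. Of 78 members, 48 stayed on one side of the median of all genes in every one. The other scalings among the 11 move every gene alike, so they could not change a value relative to all genes. The value table, a ratio to each array's median, is nearly such a scaling. Other ways to join probes could not change the ratio of a gene with 1 probe. The 48 therefore rest on fewer than 11 separate checks. Cyc1 ranged from 0.68 to 0.79 relative to all genes, Atp5a1 from 0.42 to 0.54, Atp5b from 0.24 to 0.55 and Cox8a from -0.39 to -0.28. Members at least 1.5-fold higher numbered 2, one of them Cyc1, with median scaling and 2 with no scaling; a threshold at a log2 ratio of 0.32 gave 4 higher and 2 lower. The values below are medians relative to all genes unless a difference of isoforms is named. With quantile normalization, complex V was at 0.022, Cox6a2 minus Cox6a1 at 0.18 and Cox8b minus Cox8a at 0.44. With loess, complex V was at -0.0081 and Cox6a2 minus Cox6a1 at 0.22. With normexp correction, all members were at 0.041, complex II at 0.15, cytochrome c at 0.20, complex V at -0.0049, Cox6a2 at 0.12, Cox7a1 at -0.0305 and Cox8b minus Cox8a at 0.45. With no filter on dim probes, which moved the median of all genes by -0.11, all members were at 0.12, complex I at 0.11, complex II at 0.22, complex III at 0.15, cytochrome c at 0.28, complex IV at 0.15, complex V at 0.067, Cox6a2 at 0.20, Cox7a1 at 0.044 and Cox8b at 0.21. With the brightest probe of a gene, cytochrome c was at 0.20. The cause of these moves was not tested. No paired analysis was possible because each group has 1 array; for the same reason no replicate could be left out, and the slide could not be a block because both arrays share it. The spread between animals cannot be seen in these data.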
